A study of Mus musculus with 2 samples.

Results

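Transcripts of the major histocompatibility complex (MHC) and of antigen presentation were followed in endothelial cells sorted from the normal brain vasculature of C57BL/6 mice. One array was hybridized with RNA of CD31+ Prom1+ cells and 1 with RNA of CD31+ Prom1- cells. Prom1, the mouse CD133, is a pentaspan membrane protein, and CD31 is a surface marker of endothelium. Neither the age of the mice nor how many were used for an array is given in the sources used here. The members are the genes named H2- by the array annotation and 24 other genes of the pathway, chosen by name. Earlier results of these data were known when they were chosen. Of 18194 genes on the array, 45 were members, with 90 probe sets of the 34958 that are annotated to 1 gene. Of the 24 other genes, 22 were found. *Psme2* has its probe set annotated together with another gene, and *Lnpep* was not analysed here. For each gene the probe set with the highest mean of both arrays was used.

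MHC class I molecules consist of a heavy chain and beta-2 microglobulin, and show peptides from inside the cell to CD8 T cells. The peptides are cut by the proteasome, pumped into the endoplasmic reticulum by the TAP transporter, trimmed there and loaded onto the heavy chain by a complex of tapasin, calreticulin and an oxidoreductase. Class II molecules are made mainly by professional antigen-presenting cells and show peptides from endosomes to CD4 T cells. The factor NLRC5 drives class I genes and CIITA drives class II genes, both through a promoter module bound by RFX, CREB and NF-Y. Endothelium of the brain is known for class I on its surface and for class II chiefly under inflammation.

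Promoters of 6 members are shown first: 5 that hold a CREB motif and an NF-Y motif of this module at a short distance, and that of *Tap1*. The RFX site was not searched. The sequences are those of RefSeq for the GRCm38.p6 build, from 250 bases before to 50 bases after the start of the gene, and 31 of the 45 members matched an entry. CCAAT (the Y box of NF-Y), TGACG (the core of the X2 box of CREB), a pair of GAAA runs separated by 2 bases (the core of an interferon response element) and the palindromic kappa B site of H-2 promoters were searched on both strands. Their letters are in capitals, without the bases between the GAAA runs. The pair of TGACG followed after 10 to 30 bases by ATTGG, the other strand of CCAAT, overlaps both single motifs. It stood in 5 of the 31 members and in 0.743% of 32851 windows of all genes. All 3 classical class I genes held it with a gap of 20 bases, as did *H2-M3*, and *H2-Aa* held it with a gap of 21 bases. The windows are chr2:122147437-122147736 on the + strand for *B2m*, chr17:34000298-34000597 on the - strand for *H2-K1* (the first of 2 windows listed), chr17:35262844-35263143 on the + strand for *H2-D1*, chr17:37269984-37270283 on the + strand for *H2-M3*, chr17:34287774-34288073 on the - strand for *H2-Aa* and chr17:34187306-34187605 on the + strand for *Tap1*. A match is a description of the letters, not a site shown to be used in these cells.
B2m: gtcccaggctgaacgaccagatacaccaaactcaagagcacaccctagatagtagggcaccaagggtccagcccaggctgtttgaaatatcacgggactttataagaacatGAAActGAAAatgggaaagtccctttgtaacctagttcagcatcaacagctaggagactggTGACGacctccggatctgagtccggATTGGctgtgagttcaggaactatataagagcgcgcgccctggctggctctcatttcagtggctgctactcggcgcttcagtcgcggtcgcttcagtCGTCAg
H2-K1: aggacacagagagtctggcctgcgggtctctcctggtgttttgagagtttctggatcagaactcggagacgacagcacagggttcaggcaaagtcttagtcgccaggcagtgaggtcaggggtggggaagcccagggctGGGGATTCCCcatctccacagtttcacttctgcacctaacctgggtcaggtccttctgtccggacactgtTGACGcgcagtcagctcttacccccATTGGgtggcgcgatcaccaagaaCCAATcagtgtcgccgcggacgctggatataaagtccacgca
H2-D1: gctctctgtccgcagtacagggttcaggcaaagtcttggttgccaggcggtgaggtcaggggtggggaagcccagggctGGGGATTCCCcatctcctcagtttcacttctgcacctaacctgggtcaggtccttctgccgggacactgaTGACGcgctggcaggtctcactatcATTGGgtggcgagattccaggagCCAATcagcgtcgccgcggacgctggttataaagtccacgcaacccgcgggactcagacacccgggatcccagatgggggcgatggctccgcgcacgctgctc
H2-M3: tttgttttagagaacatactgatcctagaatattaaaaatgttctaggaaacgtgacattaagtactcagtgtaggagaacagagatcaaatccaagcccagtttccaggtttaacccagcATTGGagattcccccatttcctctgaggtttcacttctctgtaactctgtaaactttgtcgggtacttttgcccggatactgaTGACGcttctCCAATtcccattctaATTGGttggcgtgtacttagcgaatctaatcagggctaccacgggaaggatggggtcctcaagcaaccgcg
H2-Aa: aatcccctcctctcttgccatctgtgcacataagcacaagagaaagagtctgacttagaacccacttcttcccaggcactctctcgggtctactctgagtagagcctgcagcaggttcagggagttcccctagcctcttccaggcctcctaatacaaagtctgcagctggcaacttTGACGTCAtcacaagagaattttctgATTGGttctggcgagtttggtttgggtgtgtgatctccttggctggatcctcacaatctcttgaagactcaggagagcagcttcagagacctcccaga
Tap1: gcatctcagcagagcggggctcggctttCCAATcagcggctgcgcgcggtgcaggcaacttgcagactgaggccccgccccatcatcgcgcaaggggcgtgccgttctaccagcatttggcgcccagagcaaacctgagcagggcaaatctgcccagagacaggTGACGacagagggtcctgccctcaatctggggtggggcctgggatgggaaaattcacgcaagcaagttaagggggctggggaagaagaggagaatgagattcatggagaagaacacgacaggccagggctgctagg

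Of the 10 members that were at least 2-fold higher on the Prom1+ array, 7 had a window, and 1 of these, *H2-M3*, held the pair. CCAAT stood in 22 of 31 members and in 37.4% of all windows, and TGACG in 10 of 31 and in 20.8%. For each motif and for the pair, a member was counted if any of its windows held it. The shares of all windows are over single windows, so a member with several windows had more chances of a match. The paired GAAA runs were found in *B2m*, *Erap1* and *Psme1*, against 3.44% of all windows. Only this exact form was searched, so a window without it is not shown to lack an interferon response element. The kappa B site, the run of capitals that starts with GGGG, was found in *H2-K1* and *H2-D1*, against 0.107%. The *Tap1* sequence is shown because *Psmb9* lies next to it on the other strand. Their windows share 275 bases, so the printed stretch is also most of the *Psmb9* window read from the opposite side. *Psmb9*, *Tap1*, *Psmb8* and *Tap2* follow each other on chromosome 17 with no other protein-coding gene between them.

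Signals are given as multiples of the median signal of the same array. Signals under a floor of 1.67 times the median, which stands for 100 on the target scale of 500 used by the study, were raised to it, and a gene is called measured if either array reached the floor. Neither population was replicated, so no p-value is given and no difference has a replicate check. Genes were counted by a fixed fold of 2. Probe sets of the same gene had log2 ratios with an SD of 0.54 over 3930 genes, a technical measure that says nothing of the spread between animals. *Prom1* itself gave 159 on the array labelled Prom1+ against 196 on the one labelled Prom1-, a log2 ratio of -0.30 that runs against the labels. The 285 genes of like signal, at a mean log2 signal of 7 to 8, had a median of -0.21. The *Prom1* transcript was thus not higher on the array labelled Prom1+, and the reason was not tested. The arrays are therefore named here by their labels, and every direction rests on them. All 14 endothelial markers matched, *Pecam1* and *Cdh5* among them, reached the floor on both arrays. Their summed signal was 1888 on the Prom1+ array against 2126 on the Prom1- array.

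Of the 45 members, 22 reached the floor on both arrays, 2 in the Prom1+ array only, 2 in the Prom1- array only and 19 on neither. By the fold of 2, 10 of the 26 measured members were higher in the Prom1+ array, or 38.5%, where 28.2% of the 10793 measured genes were. None was lower, where 4.77% of all measured genes were. The median log2 ratio was 0.41 over the members and 0.66 over all measured genes. The 10 genes were *Cd274*, *Nlrc5*, *Tap1*, *Mr1*, *Erap1*, *Psmb8*, *Tapbpl*, *Psmb9*, *H2-M3* and *Tap2*. Of these, *Cd274* and *Nlrc5* alone stayed at 2-fold or more under each of 6 scalings of the arrays. *Nlrc5* was below the floor on the Prom1- array, which damps its change with the scaling. In bulk RNA of this kind, fewer cells that make a transcript and less of it per cell cannot be told apart.

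**Figure D1:**
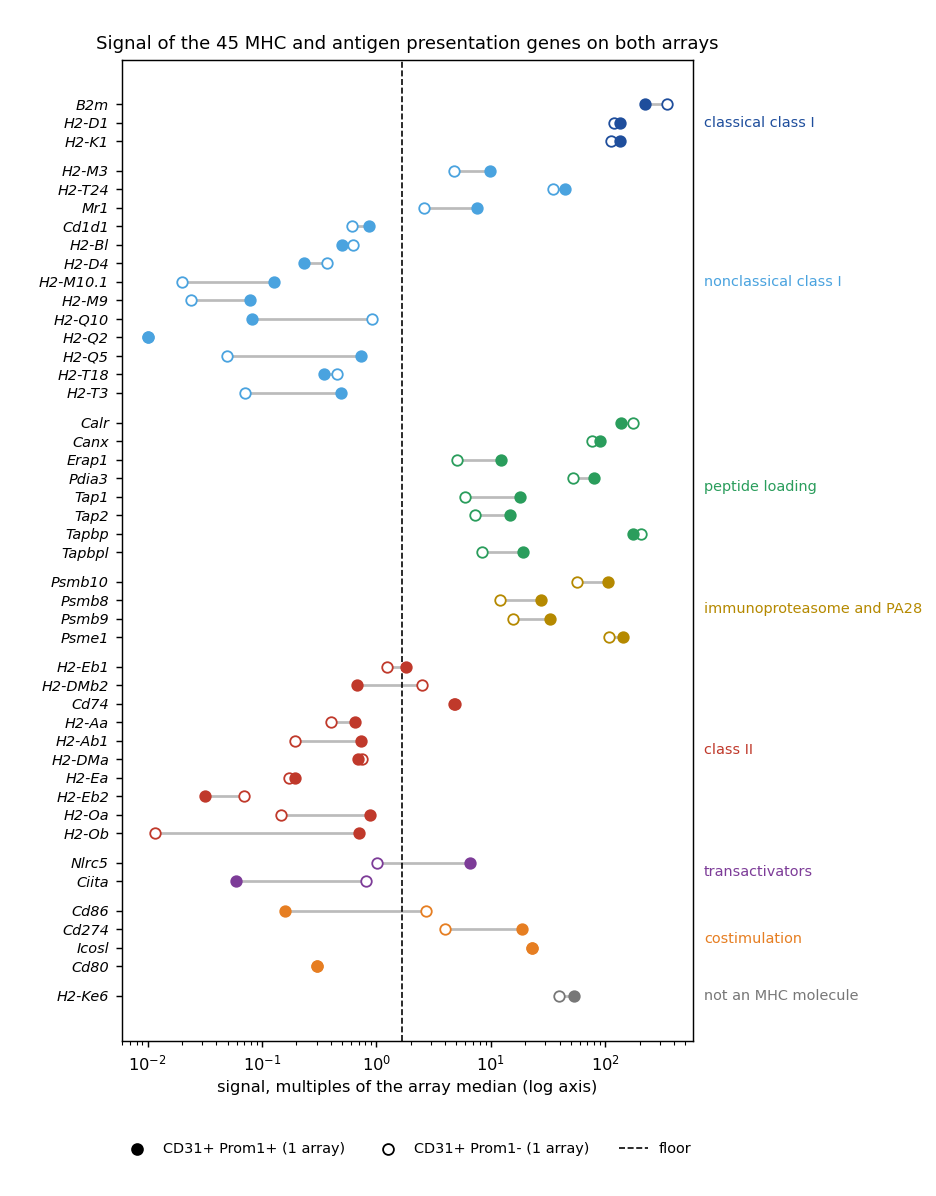
Signal of each of the 45 members (multiples of the array median, log axis), with filled points for the CD31+ Prom1+ array and open points for the CD31+ Prom1- array, 1 array each, grouped by role. The dashed line is the floor of 1.67 times the median. Of the class II genes only *Cd74* lies above the floor on both arrays.

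The classical class I genes were measured far above the floor on both arrays. *B2m*, beta-2 microglobulin, had a signal of 222 on the Prom1+ array against 345 on the Prom1- array, a log2 ratio of -0.64. The heavy chain gene *H2-K1* had signals of 134 (Prom1+) and 111 (Prom1-), a log2 ratio of 0.27. The other heavy chain gene, *H2-D1*, had a signal of 134 on the Prom1+ array against 119 on the Prom1- array, a log2 ratio of 0.17. None of the 3 differed by 2-fold. At such signals few genes of any kind did: of 897 genes with a mean log2 signal of 6 to 7, 1.11% were at least 2-fold higher and 0.780% at least 2-fold lower. Of the 23 genes at 8 and above, where *B2m* lies, none was higher and 1 was lower by 2-fold. The median log2 ratio of these 23 was -0.63, next to that of *B2m*.

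The heavy chain genes are close copies of each other, and most of their probe sets end in _x_at, the suffix for probes that can match several transcripts. Values of single H2 genes are therefore uncertain. *H2-D1* has 9 probe sets, of which 5 reached the floor on both arrays and 4 on neither. The 5 were all higher in the Prom1+ array, from 1.01-fold to 2.37-fold. The highest ratio came from its only measured probe set with no such suffix, at a signal of 56.5 on the Prom1+ array against 23.9 on the Prom1- array. *H2-K1* has 4 probe sets, 3 of them measured on both arrays, with log2 ratios of 0.27, 0.48 and 0.59. The second probe set of *B2m* had signals of 168 (Prom1+) and 214 (Prom1-), the same direction as the first.

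The nonclassical class I genes show lipids, metabolites or fixed peptides rather than the broad set of peptides of the classical ones. Of 13 members 3 were measured. *Mr1*, which presents vitamin B metabolites to MAIT cells, had a signal of 7.54 on the Prom1+ array against 2.58 on the Prom1- array, 2.92-fold higher. Its second probe set reached the floor only in the Prom1+ array, at a signal of 1.98 against 0.662 on the Prom1- array. *H2-M3*, which presents formylated peptides, was 2.05-fold higher, at signals of 9.81 (Prom1+) and 4.80 (Prom1-). *H2-T24* had a signal of 44.3 on the Prom1+ array against 34.7 on the Prom1- array, 1.28-fold higher. The lipid presenter *Cd1d1* was below the floor in both populations, at signals of 0.854 (Prom1+) and 0.611 (Prom1-), and so were *H2-Bl*, *H2-D4*, *H2-M10.1*, *H2-M9*, *H2-Q2*, *H2-Q5*, *H2-Q10*, *H2-T3* and *H2-T18*. No fold is given for these 10.

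A further 16 probe sets are annotated to several genes of which at least 1 belongs to the pathway, and these were left out of the members by the rule. Of the 12 that concern class I, 8 were measured. The probe set shared by *H2-T9*, *H2-T22* and *H2-T10*, among them ligands of gamma delta T cells, had a signal of 46.4 on the Prom1+ array against 16.9 on the Prom1- array, 2.75-fold higher. The one shared by *H2-Q9* and *H2-Q7* was 2.09-fold higher. The one of *H2-T23*, the Qa-1 heavy chain that NK cells read through NKG2 receptors, shared with a pseudogene, had signals of 92.3 (Prom1+) and 53.8 (Prom1-), 1.71-fold higher. Over the 18 measured H2 class I probe sets of both kinds, 17 were above a ratio of 1, 4 of them by 2-fold, and the median log2 ratio was 0.66. Of all measured genes 82.1% were above a ratio of 1 and 28.2% by 2-fold, with a median of 0.66. The exception, shared by *H2-Bl* and other loci, had a signal of 3.86 on the Prom1+ array against 4.80 on the Prom1- array. The shares of all genes count 1 probe set per gene, whereas several of the 18 stand for the same gene. After loess the 3 shared probe sets first named above had log2 ratios of 0.69, 0.23 and 0.39, each less than 2-fold. A second one of *H2-T9*, *H2-T22* and *H2-T10* had 1.08, with its Prom1- signal below the floor. Several of the 18 fell below 0 after loess, *H2-T24* at -0.31 among them.

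**Figure D2:**
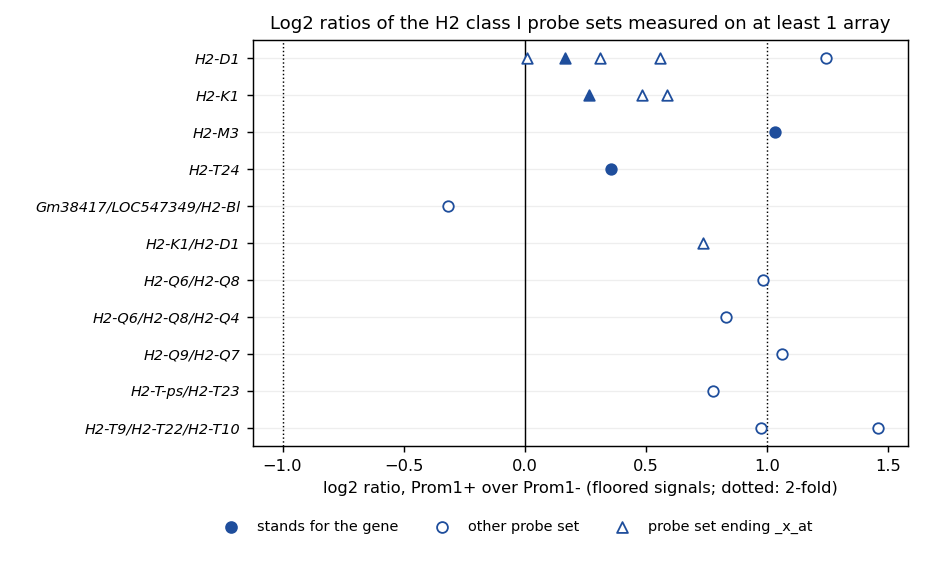
Log2 ratio of the Prom1+ over the Prom1- array for the 18 H2 class I probe sets measured on at least 1 array, by the gene or genes they are annotated to. Filled points stand for the gene, open points are other probe sets, and triangles are probe sets ending in _x_at. All but 1 lie above 0, and 4 lie past 2-fold.

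All 8 genes of peptide transport, trimming and loading were measured on both arrays, and 4 were at least 2-fold higher in the Prom1+ array, beside 28.2% of all measured genes. None of the 8 was after quantile normalization or loess. *Tap1*, a subunit of the peptide transporter, had a signal of 18.1 on the Prom1+ array against 5.94 on the Prom1- array, 3.05-fold higher. Its other 3 probe sets were below the floor on both arrays. Its partner *Tap2* had signals of 14.7 (Prom1+) and 7.22 (Prom1-), 2.03-fold higher. *Erap1*, the aminopeptidase that trims peptides in the endoplasmic reticulum, was 2.44-fold higher, with a signal of 12.3 on the Prom1+ array against 5.04 on the Prom1- array. *Tapbpl*, the tapasin relative TAPBPR that edits the bound peptides, was 2.27-fold higher, at a signal of 19.0 on the Prom1+ array against 8.39 on the Prom1- array. The second probe set of *Tapbpl* was below the floor on both arrays.

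The other 4 genes of the loading complex differed by less. *Tapbp*, tapasin, had a signal of 174 on the Prom1+ array against 204 on the Prom1- array. The chaperone *Calr* had signals of 137 (Prom1+) and 174 (Prom1-), and *Canx* had signals of 91.1 (Prom1+) and 77.4 (Prom1-). *Pdia3*, the oxidoreductase of the complex, was 1.55-fold higher, with a signal of 80.4 on the Prom1+ array against 51.9 on the Prom1- array. Dimmer probe sets of *Tapbp*, *Pdia3* and *Canx* gave larger ratios, and that of *Erap1* a smaller one. The second of *Tapbp* had a signal of 3.07 on the Prom1+ array against 0.871, below the floor, on the Prom1- array, and was at least 1.83-fold higher. That of *Pdia3* had signals of 3.37 (Prom1+) and 1.28 (Prom1-, below the floor), at least 2.01-fold higher. The other 2 of *Canx* were 1.98-fold and 2.06-fold higher. For *Erap1* the dimmer one was 1.11-fold higher, at a signal of 2.18 on the Prom1+ array against 1.97 on the Prom1- array.

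The immunoproteasome replaces 3 catalytic subunits of the standard proteasome and favors peptides that fit class I. *Psmb8* had a signal of 27.5 on the Prom1+ array against 12.1 on the Prom1- array, 2.28-fold higher. Its second probe set was below the floor on both arrays. *Psmb9*, the neighbor of *Tap1*, was 2.10-fold higher, at signals of 32.7 (Prom1+) and 15.6 (Prom1-). The third, *Psmb10*, had a signal of 105 on the Prom1+ array against 56.9 on the Prom1- array, 1.85-fold higher. *Psme1*, a subunit of the PA28 activator, was 1.32-fold higher, at signals of 144 (Prom1+) and 109 (Prom1-). Its partner *Psme2*, by the probe set shared with *Psme2b*, had a signal of 82.0 on the Prom1+ array against 60.7 on the Prom1- array.

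Against the standard subunits that they replace, the 3 immunoproteasome subunits differed from each other. *Psmb5*, the counterpart of *Psmb8*, was 2.31-fold higher, so the log2 ratio of *Psmb8* was 0.02 below that of *Psmb5* (difference -0.02). *Psmb9* exceeded its counterpart *Psmb6* by 0.82 on the log2 scale, with *Psmb6* at a signal of 105 on the Prom1+ array against 88.1 on the Prom1- array. *Psmb10* exceeded *Psmb7* by 0.24. After loess these differences were -0.28 for *Psmb8*, 0.18 for *Psmb9* and 0.32 for *Psmb10*, so the order of the pairs changed with the scaling. Of the 14 genes of the standard 20S core, 1 was at least 2-fold higher and 13 differed by less, with a median log2 ratio of 0.32. Of all measured genes 28.2% were at least 2-fold higher, with a median of 0.66. All 14 core genes had a mean log2 signal of 5 to 7, so genes of like signal are the closer comparison. Of genes of any kind at 5 to 6, 12.3% were higher, with a median of 0.62. At 6 to 7, 1.11% were higher, with a median of 0.29. *Psma6* was 1.34-fold higher, and *Psmb3* had a signal of 100.5 on the Prom1+ array against 102 on the Prom1- array.

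The division of the class I genes followed signal. Over class I molecules, loading and immunoproteasome, 18 of 28 genes were measured, 8 of them were at least 2-fold higher and none was lower, with a median log2 ratio of 0.76. The 8 higher genes were the 8 with a mean log2 signal of 2 to 5, and none of the 10 above 5 was called. Genes of any kind in the same signal ranges had median log2 ratios of 0.91 (2 to 3), 0.89 (3 to 4) and 0.84 (4 to 5), and 44.8%, 41.4% and 34.7% of these genes were at least 2-fold higher. At 5 to 6 the median was 0.62 and 12.3% were higher. After a loess fit had removed this dependence on signal, the median of the 18 genes was 0.22 and none was past 2-fold, where 5.55% of all measured genes were higher and 7.97% lower. Their loess ratios ran from -0.31 to 0.73, with 14 of 18 above 0, or 77.8%, where 53.1% of all measured genes were. *Mr1*, *Tap1* and *Psmb10* had the highest, at 0.73, 0.70 and 0.56.

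**Figure D3:**
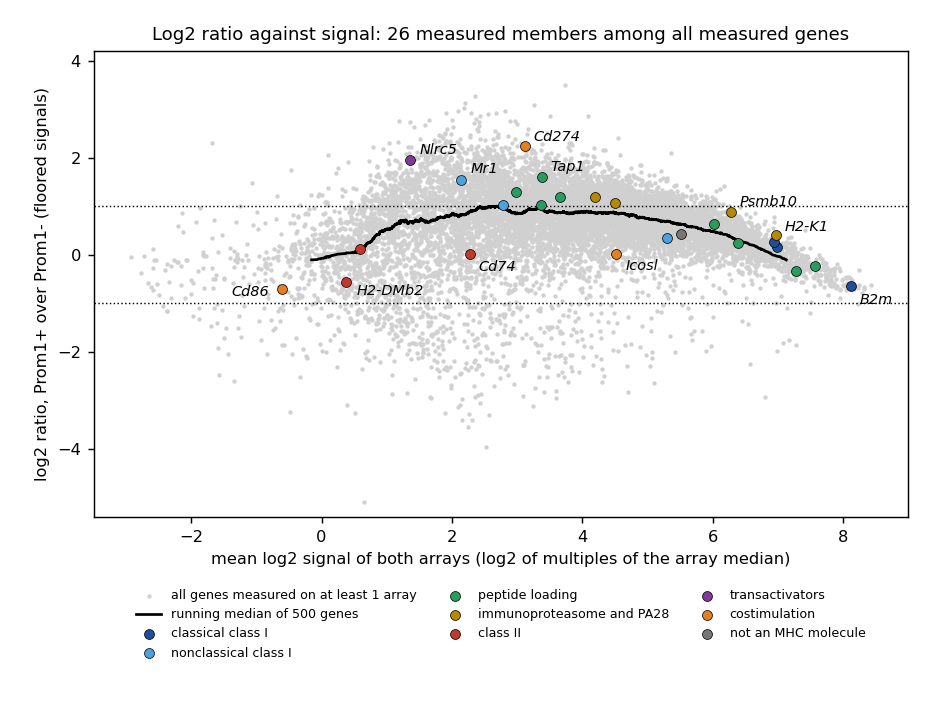
Log2 ratio of the Prom1+ over the Prom1- array (floored signals) against the mean log2 signal of both arrays. Grey points are all measured genes, the black line is their running median over 500 genes, colored points are the 26 measured members by role, and dotted lines mark 2-fold. *Cd274* and *Nlrc5* lie well above the line, *Cd74* and *Icosl* below it, and the classical class I genes at the right end where the line falls.

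Apart from *Cd74*, the class II genes were under or close to the floor on both arrays. Of 10 members 7 were under it on both: *H2-Aa* and *H2-Ab1*, the chains of the I-A molecule, *H2-DMa* and *H2-Oa* and *H2-Ob* of the loading step, *H2-Eb2*, and *H2-Ea*, which the RefSeq table lists as a transcribed pseudogene. Their signals were at most 0.887 on the Prom1+ array against 0.751 on the Prom1- array. *H2-Aa* had signals of 0.648 (Prom1+) and 0.402 (Prom1-), and *H2-Ab1* had signals of 0.741 (Prom1+) and 0.196 (Prom1-). All 27 probe sets for Bacillus spike-ins, with no mouse target, were at most 0.234 on the Prom1+ array against 0.276 on the Prom1- array. *H2-Oa* had signals of 0.887 (Prom1+) and 0.147 (Prom1-), and *H2-Ob* had 0.701 (Prom1+) and 0.0116 (Prom1-). Thus, by the probe sets used, *H2-Ab1*, *H2-Oa* and *H2-Ob* exceeded the highest spike-in on the Prom1+ array and not on the Prom1- array. Another *H2-Ab1* probe set did so on both arrays, at 0.567 (Prom1+) and 0.324 (Prom1-). The third, at 0.511 (Prom1+) and 0.159 (Prom1-), went the way of the first. A probe set shared by *H2-Ob* and *Gm20506* went the opposite way, at 0.205 (Prom1+) and 0.310 (Prom1-). The reverse was seen for *Ciita*, at 0.0592 (Prom1+) and 0.817 (Prom1-), and for the class I gene *H2-Q10*, at 0.0811 (Prom1+) and 0.921 (Prom1-). How many genes under the floor pass the highest spike-in on 1 array only was not counted. All these signals lay under the floor, so no fold is given and presence on 1 array only is not shown.

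*Cd74*, the invariant chain that guards class II molecules on their way to the endosome, reached the floor on both arrays, with a signal of 4.84 on the Prom1+ array against 4.82 on the Prom1- array. Its log2 ratio of 0.01 compares with a median of 0.91 among genes of like signal. *H2-Eb1* had a signal of 1.83 on the Prom1+ array against 1.24, below the floor, on the Prom1- array, and was at least 1.09-fold higher. *H2-DMb2*, a chain of the H2-M peptide exchanger, had a signal of 0.680, below the floor, on the Prom1+ array against 2.48 on the Prom1- array, and was at least 1.48-fold lower. The median log2 ratio of these 3 was 0.01. *Ciita*, the class II transactivator, was below the floor in both populations, at signals of 0.0592 (Prom1+) and 0.817 (Prom1-).

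Markers of other cells, only some of which make class II, were compared between the same arrays. Of all measured genes 28.2% were at least 2-fold higher on the Prom1+ array and 4.77% lower. Of 16 measured markers of microglia and macrophages, out of 18 matched, 11 differed by 2-fold or more, each of them lower on the Prom1+ array. The summed signal of the 18 was 130 on the Prom1+ array against 297 on the Prom1- array, and the defining markers *Ptprc* and *Itgam* were under the floor on both. *Csf1r* had signals of 33.6 (Prom1+) and 71.5 (Prom1-). Of 8 matched dendritic cell markers 6 were under the floor on both arrays, *Itgax* and *Flt3* among them. All 4 matched B cell markers were under it too, with a summed signal of 2.57 on the Prom1+ array against 0.939 on the Prom1- array. Pericyte and smooth muscle markers summed to 299.7 on the Prom1+ array against 965 on the Prom1- array, with 10 of 11 at least 2-fold lower. Fibroblast and meningeal markers summed to 62.0 (Prom1+) and 362 (Prom1-), with 5 of 7 measured ones lower by 2-fold. Oligodendrocyte markers summed to 215 (Prom1+) and 437 (Prom1-), with 2 of 4 lower and 1 higher. Neuronal markers summed to 2.38 (Prom1+) and 23.0 (Prom1-), with 3 of 3 lower. Astrocyte markers summed to 107 on each array, with 1 of 4 measured ones lower, *S100b*, by 5.11-fold. Most of that sum was *Gja1*, at 84.5 (Prom1+) and 67.0 (Prom1-), while *Gfap*, *Aqp4* and *Aldh1l1* were under the floor on both arrays. The 7 markers of T and NK cells were all under the floor, and of 2 red cell markers the 1 measured, *Alas2*, was higher. The part of any of these cells in the signals of the members was not tested.

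*Nlrc5*, the transactivator of class I genes, had a signal of 6.52 on the Prom1+ array against 1.01, below the floor, on the Prom1- array. It was at least 3.89-fold higher, a log2 ratio of at least 1.96, by its single probe set. Over the 6 scalings this ratio ran from 1.67 to 2.30. The Prom1- signal was raised to the floor, which narrows that range against the ranges of genes measured on both arrays. With a floor of 200 in place of 100 the ratio of *Nlrc5* was 0.96, so that the size of the bound depends on the floor.

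The ligands that raise or check T cell responses differed among themselves. *Cd274*, the checkpoint ligand PD-L1, had a signal of 18.8 on the Prom1+ array against 3.99 on the Prom1- array, 4.71-fold higher by its single probe set. Both signals were above the floor. Its log2 ratio of 2.24 compares with a median of 0.89 among genes of like signal, and it ran from 1.34 after loess to 3.26 with the hybridization controls set equal. *Icosl*, the ligand of the costimulatory receptor ICOS, was 1.01-fold higher, with a signal of 23.0 on the Prom1+ array against 22.7 on the Prom1- array, and its log2 ratio after loess was -0.80. *Cd86*, a costimulator of myeloid cells and B cells, had a signal of 0.159, below the floor, on the Prom1+ array against 2.73 on the Prom1- array, at least 1.63-fold lower. Its second probe set was below the floor in both populations. The lower microglial markers given above moved with *Cd86*, and their part in it was not tested. *Cd80* was below the floor in both populations by all 4 probe sets.

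*H2-Ke6* carries the H2- name for its place in the MHC region but encodes a hydroxysteroid dehydrogenase and no MHC molecule. It had a signal of 53.0 on the Prom1+ array against 39.5 on the Prom1- array, a log2 ratio of 0.42, and it is counted among the 45.

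How the arrays were scaled set the direction of several members. The endothelial markers of the list had a median log2 ratio of 0.02, and setting it to 0 left 10 members higher and none lower, where 27.1% and 4.87% of all measured genes were. With both arrays at a 2% trimmed mean of 500, 4 members were higher, *Cd274*, *Nlrc5*, *Tap1* and *Mr1*, and 2 were lower, *B2m* and *Cd86*, where 7.99% and 8.04% of all genes were. Quantile normalization and loess left *Cd274* and *Nlrc5*, with none lower, where 6.31% and 5.55% of all genes were higher and 7.88% and 7.97% lower. After loess the median over the 26 members was 0.19, with 17 above 0, beside 0.04 over all measured genes. With the spiked hybridization controls set equal, 20 members were higher and none lower, where 79.6% and 1.53% of all genes were. *B2m* ran from -1.18 to 0.39 and *H2-K1* from -0.28 to 1.29, so no direction holds for the classical class I genes over all scalings. *Tap1* ran from 0.70 to 2.63, *Psmb9* from 0.25 to 2.09 and *Psmb8* from 0.33 to 2.21, each above 0 throughout.

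**Figure D4:**
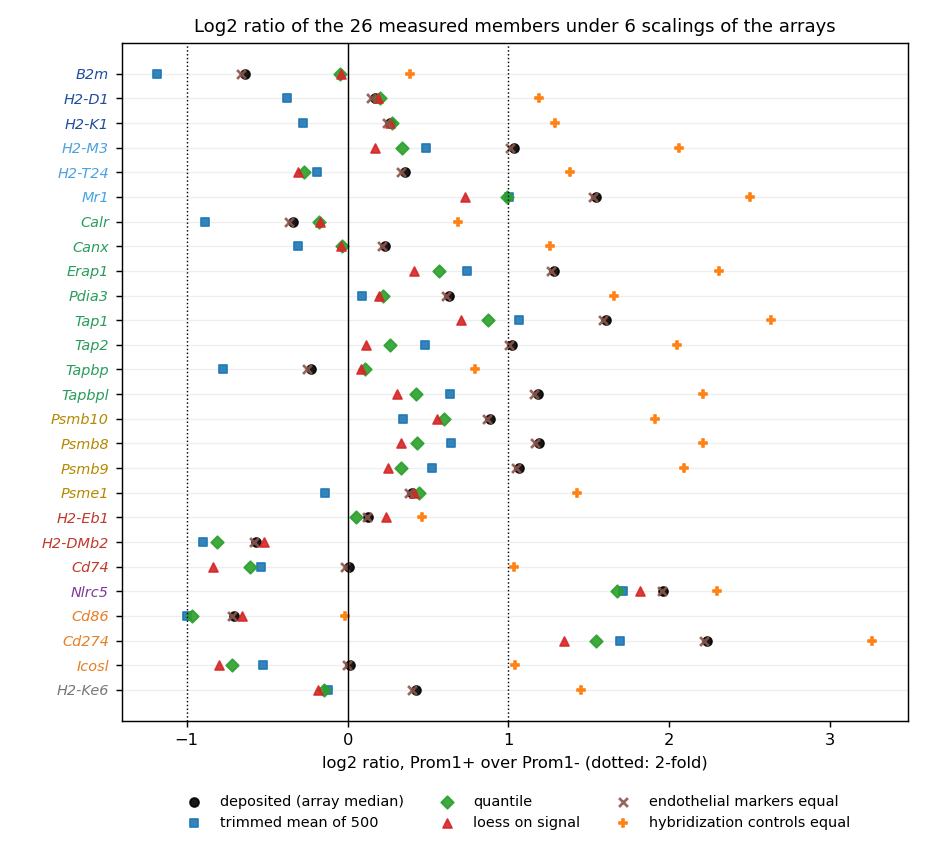
Log2 ratio of the Prom1+ over the Prom1- array for the 26 measured members (rows, colored by role) under 6 scalings of the arrays (symbols). Dotted lines mark 2-fold. *Cd274* and *Nlrc5* lie past 2-fold under all 6, and the classical class I genes lie on both sides of 0.

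Genes around the pathway were taken from lists and described by count. The counts stand beside 28.2% of all measured genes at least 2-fold higher and 4.77% at least 2-fold lower. Of 15 measured genes (17 listed, 16 matched) of interferon receptors, their kinases, STATs and IRFs, 3 were at least 2-fold higher and none lower, and the median log2 ratio was 0.79 beside 0.66 over all genes. *Irf1*, an activator of class I genes, had a signal of 82.2 on the Prom1+ array against 41.5 on the Prom1- array, a ratio of 1.98. *Ifnar1*, a chain of the type I interferon receptor, was 1.42-fold higher, and *Tyk2*, a kinase of that receptor, was 3.10-fold higher, at signals of 22.5 (Prom1+) and 7.25 (Prom1-). After loess the log2 ratio of *Tyk2* was 0.76, less than 2-fold. *Irf8*, a factor of myeloid cells, had a signal of 2.39 on the Prom1+ array against 3.73 on the Prom1- array.

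Of 9 listed subunits of RFX, CREB, NF-Y and NF-kB, 8 were matched and measured on both arrays, and none of the 8 differed by 2-fold, with a median log2 ratio of 0.60. *Rfx5* had a signal of 25.9 on the Prom1+ array against 29.5 on the Prom1- array, and *Nfya* had signals of 45.2 (Prom1+) and 30.3 (Prom1-). *Nfyc* was 1.55-fold higher, and *Rela*, a subunit of NF-kB, was 1.95-fold higher. Of 6 cytosolic peptidases 2 were at least 2-fold higher, beside 28.2% of all measured genes. *Lap3*, leucine aminopeptidase, had a signal of 29.1 on the Prom1+ array against 9.28 on the Prom1- array. *Blmh*, bleomycin hydrolase, was 2.22-fold higher, *Nrd1* 1.48-fold and *Thop1* 1.20-fold. After loess the log2 ratios of *Lap3* and *Blmh* were 0.79 and 0.36, each less than 2-fold. Among 7 other activators and assembly factors of the proteasome, 2 were at least 2-fold higher, beside the same 28.2%. The chaperone *Psmg4* was 4.03-fold higher, at signals of 6.83 (Prom1+) and 1.69 (Prom1-). The lower of these lies close to the floor. After loess the log2 ratio of *Psmg4* was 1.35. *Psme4* was 1.67-fold higher and *Pomp* had a signal of 141 on the Prom1+ array against 150 on the Prom1- array.

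All 10 genes of glycoprotein folding in the endoplasmic reticulum differed by less than 2-fold. Several of them lay at a mean log2 signal above 5, where at most 12.3% of genes of any kind were higher by 2-fold. *Hspa5*, the chaperone BiP, had a signal of 145 on the Prom1+ array against 124 on the Prom1- array, *P4hb* was 1.01-fold and *Uggt1* 1.73-fold higher, and *Pdia4* had signals of 2.37 (Prom1+) and 3.01 (Prom1-). Of 7 measured endosomal proteases and class II turnover genes 1 was at least 2-fold higher and 1 lower, beside 28.2% and 4.77% of all measured genes. The lower one was *Ctss*, the protease that cuts the invariant chain, at a signal of 32.6 on the Prom1+ array against 79.1 on the Prom1- array, 2.42-fold lower, alongside the microglial markers. The higher one was *Marchf8*, a ubiquitin ligase that removes class II from the surface, at signals of 19.2 (Prom1+) and 6.41 (Prom1-). After loess the log2 ratio of *Marchf8* was 0.68, less than 2-fold, and that of *Ctss* was -1.84. *Ctsl* and *Ctsd* were 1.46-fold and 1.06-fold higher.

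Among 10 other costimulatory and checkpoint ligands 5 were measured, 2 at least 2-fold higher and 1 lower, beside 28.2% and 4.77% of all measured genes. *Cd40*, a receptor of the TNF family through which T cells activate the cells that present to them, had a signal of 36.6 on the Prom1+ array against 11.1 on the Prom1- array, 3.30-fold higher. After loess the log2 ratio of *Cd40* was 0.88, less than 2-fold. *Lgals9*, a ligand of the checkpoint receptor TIM-3, was 1.71-fold higher. *Tnfsf9*, the ligand of 4-1BB, had a signal of 0.241, below the floor, on the Prom1+ array against 3.36 on the Prom1- array, at least 2.01-fold lower. *Pdcd1lg2*, the other ligand of PD-1, was below the floor in both populations. Of the NK receptor ligands only *Clec2d* reached the floor among 3 matched, at a signal of 119 on the Prom1+ array against 120 on the Prom1- array.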

How the data were processed

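Gene expression was measured in 2 sorted populations with Affymetrix whole-genome mouse arrays, unreplicated. The authors amplified and biotin-labeled the RNA, brought the arrays to a target of 500 and used GeneSpring for normalization, and the submitters' processing notes name MAS5. Each deposited value is a log2 ratio of a probe set's signal to the array median, with a median of 0 and a lowest value of -6.64 in both columns. This scale was found from the values. The number of arrays limits the precision.

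Members were probe sets with 1 gene symbol in the platform annotation. Of 45101 probe sets 35890 are listed, 932 of these have several genes, and 34754 of the 34958 with 1 gene were found in RefSeq. Every member is named, and of each other pathway list the 2 genes with the highest mean signal and the 1 with the largest ratio each way. Named beside that rule, with their values already seen, were *Pecam1*, *Cdh5*, *Csf1r*, *Ptprc*, *Itgam*, *Itgax*, *Flt3*, *Alas2*, *Pdcd1lg2* and the standard subunits *Psmb6* and *Psmb7*. So were *Siglech*, *Zbtb46*, *S100b*, *Gja1*, *Gfap*, *Aqp4* and *Aldh1l1*. The members and lists were chosen with earlier results of these data known. The floor of 100 was converted by averaging the arrays' 2% trimmed means and setting that average to 500. Loess used a span of 0.2 on probe sets that passed the floor in both columns. The rules were tested on simulated data. Alternatives were other floors, scalings, probe set choices and thresholds. Python 3.11.15, numpy 2.4.6, pandas 2.3.3, statsmodels 0.14.6 and matplotlib 3.10.9 were used.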

Additional observations from a re-analysis of the deposited data

How the results depend on the processing

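No paired analysis was possible because each population has 1 array. The 10 higher members became 17 with no floor, 4 with a trimmed mean of 500, 2 with quantile normalization, 2 with loess, 20 with the hybridization controls set equal and 3 at a threshold of 3-fold, and stayed between 7 and 12 under the other 7 settings. The lower members, 0 as reported, were 2 with a floor of 50, 5 with no floor, 2 with a trimmed mean of 500 and 2 at 1.5-fold, and 0 under the rest. The median log2 ratio of the members, 0.41 over 26, turned to -0.12 with a trimmed mean of 500 and was 1.45 with the hybridization controls set equal, each over 25. That of the class I, loading and immunoproteasome genes, 0.76, was 0.21 with a trimmed mean of 500, 0.22 with loess and 1.78 with the hybridization controls. That of the class II genes, 0.01, rests on 3 measured genes. It turned to -0.61 with quantile normalization, -0.52 with loess and -0.014 with the endothelial markers set equal, each over 3 genes. With a trimmed mean of 500 it was -0.72 over 2 genes, without *H2-Eb1*. With the hybridization controls it was 0.75 over 2 genes, without *H2-DMb2*. These last 2 values therefore differ from 0.01 also by the genes measured. The cause of these shifts was not tested. No member called 2-fold higher changed direction under those of the 11 other floors, scalings and probe set choices that gave it a value. Of the class II genes 7 of 10 were too close to background for a ratio.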
